A study of Mus musculus with 6 samples.

Results

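miR-378 is 1 of the 103 miRNAs with a deposited ΔCt in this PCR array of mouse osteoclasts, and it was picked by its name on the array, with its difference between the groups of these samples already known. Its levels are therefore given as a description, with no p-value. The cells were sorted with magnetic beads from mouse bone marrow as osteoclasts carrying OSCAR and CTR, 2 weeks after surgery. ACLT is the cutting of the anterior cruciate ligament, which destabilises the knee, and Sham is the control operation; each group had 3 samples. The sources used here give no strain, sex or age of the mice, and neither group carries a named genetic change. The series text says that RNA of 3 mice per group was pooled, and it does not say whether a sample is a mouse or a repeat of a pool, so the spread between samples may be technical. A difference in a bulk sample cannot tell fewer cells of a type from less RNA per cell. OSCAR and CTR themselves were not measured on a miRNA array, so the sorted cell type was not checked by them.

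miR-378 is read from an intron of Ppargc1b, the gene of PGC-1β, a coactivator that drives the formation of mitochondria and oxidative metabolism. In the RefSeq table of GRCm38.p6 the miRNA gene, there called Mir378a, lies within the span of Ppargc1b. PGC-1β is induced during osteoclast differentiation and supports the mitochondria that these cells need to resorb bone. In mouse liver and muscle miR-378 acts on lipid and energy metabolism, partly through carnitine acetyltransferase, and it has been described as rising when osteoclasts form. The array reads mature miRNAs, so the host transcript was not analysed here. The hairpin also gives a passenger strand, miR-378*, and its assay had no Ct in any of the 6 samples.

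None of the other 706 listed assays shared its seed, bases 2 to 8 of a miRNA, through which targets are recognised. The closest listed assay differed by 8 base changes and the closest detected one by 10, over the 21 bases of miR-378.

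A threshold cycle (Ct) is the PCR cycle at which the signal of a well crosses a set line, so a lower Ct is more RNA and 1 cycle is a factor of 2 at full efficiency. The raw Ct of miR-378 was 23.652, 23.873 and 22.852 in ACLT samples 1 to 3 and 25.027, 25.973 and 25.421 in Sham samples 1 to 3. The ACLT cells reached the line earlier in every sample, and the groups did not overlap. The mean of the 3 ACLT samples was 23.5 ± 0.54 cycles and that of the 3 Sham samples 25.5 ± 0.48 cycles (SD), a difference of -2.01 cycles. On raw Ct, 27.0% of the tested miRNAs were likewise earlier in ACLT without overlap. These values lie in the early part of the measured range, since the median Ct of the detected miRNAs was between 27.9 and 28.5 in the 6 samples.

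**Figure D1:**
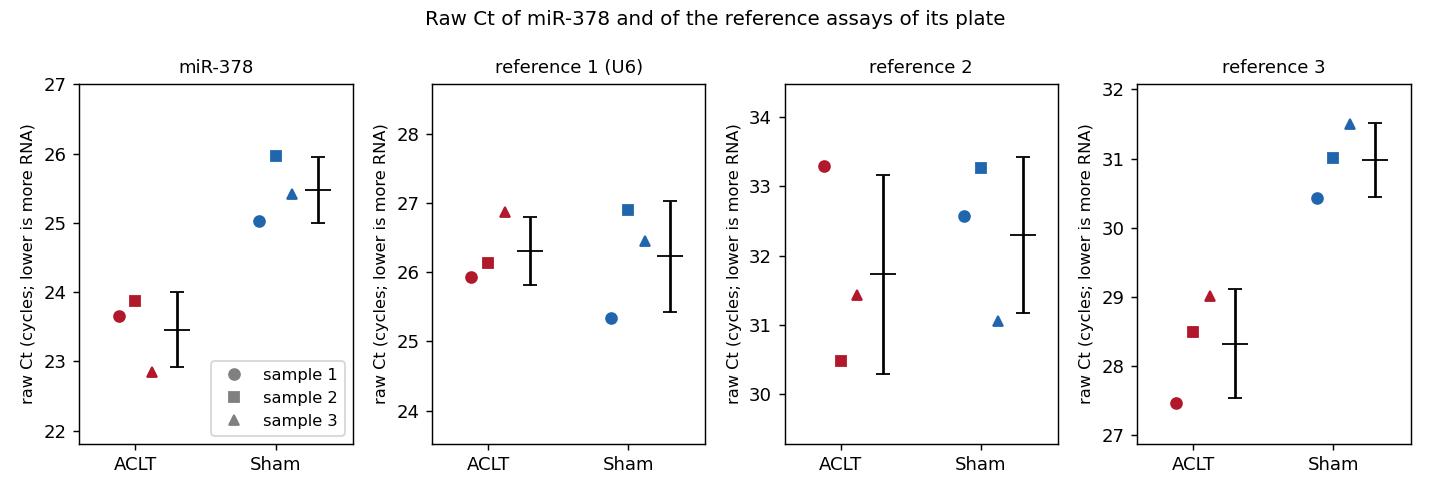
Raw Ct in cycles of miR-378 and of the 3 reference assays on its plate, in 3 ACLT and 3 Sham samples (points, shaped by sample number), with mean ± SD beside them; all panels span the same number of cycles. miR-378 and reference 3 are separated between the groups, with differences of -2.01 and -2.66 cycles, and U6 and reference 2 overlap.

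Relative to the U6 small nuclear RNA, the authors' normalizer, the level of miR-378 (minus ΔCt, on a log2 scale) was 2.284, 2.258 and 4.013 in ACLT and 0.319, 0.929 and 1.032 in Sham. The lowest ACLT sample was above the highest Sham sample by 1.23 log2 units. The mean level of the ACLT samples was 2.85 ± 1.01 against 0.76 ± 0.39 for the Sham samples (SD, n = 3 each), a difference of 2.09 ± 0.61 (SE from limma, a linear model fitted over all 100 tested miRNAs). This is 4.26-fold, the same ratio as in the authors' deposited table, where it ranked 12 of 103. In the limma fit, 13.0% of the tested miRNAs were called higher in ACLT at an adjusted p of 0.05 and 7.00% lower. These shares are a background only, and the higher share counts miR-378 itself. Its own call is not read as a result, since miR-378 was picked with these values known. Over 21 alternative settings of the fit, that call was absent in 7.

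The 3 ACLT samples were not alike. ACLT samples 1 and 2 differed by less than 0.1 log2 unit, whereas ACLT sample 3 was 1.74 above their mean. Of this gap, 0.91 came from the Ct of miR-378 itself and 0.83 from the U6 well, which had a later Ct in that sample. Most tested miRNAs moved the same way there: 89 of 100 were higher relative to U6 in ACLT sample 3 than in the mean of the other two, by a median of 0.68. The gap of miR-378 was the third largest of the 100. Its SD in ACLT ranked 9 of 100 and was above the median SD of 0.57.

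In Sham the reference well moved sample 1 from the highest place to the lowest. Sham sample 1 had the earliest Ct of the 3 for miR-378, by 0.67 cycles against the mean of the other two, but its U6 well was earlier by 1.33 cycles. Its level relative to U6 was thus the lowest of the group, 0.66 below the other two. The Sham SD of 0.39 was small, with rank 90 of 100 and a median SD of 0.74 among the tested miRNAs.

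Relative to U6 the groups did not overlap, so leaving out a sample could not make them overlap. The size of the difference moved. Over the 9 pairs of 1 ACLT and 1 Sham sample it ran from 1.23 to 3.69, with a median of 1.94. Without ACLT sample 3 it was 1.51. Leaving out any other sample gave 1.87 to 2.39. The difference of the group medians, which gives ACLT sample 3 less weight, was 1.36.

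In most wells of the array the third sample of a group was tied to the second by a constant factor. With a tolerance of 0.002 cycles, 77 of 110 wells were on a factor of 0.99 in ACLT and 82 of 110 on a factor of 0.978 in Sham, or on its reciprocal. miR-378 was off the factor in both groups. In ACLT it lay 0.78 cycles away from it. In Sham it lay only 0.00902 cycles away, with a Ct in sample 3 of 0.979 times that in sample 2, outside the tolerance but close to it. Whether this Sham value is an independent measurement was not tested. With samples 2 and 3 of each group averaged the difference was 2.06, and with samples 1 and 2 alone it was 1.65. Of the 100 tested miRNAs, 16 were off the factor in both groups, and these 16 included all 13 called higher. miR-378 is counted in both numbers, and its own call is not read as a result. Of the 7 called lower, miR-185, miR-186, miR-192, miR-203, miR-205 and miR-222 were on it in both groups. miR-99b* was on it in Sham only. The lower calls thus rest mostly on samples 2 and 3 that are tied.

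The reference assays decided the sign and the size of the difference. U6 on the plate of miR-378 came up at 26.3 ± 0.49 cycles in the ACLT samples and at 26.2 ± 0.80 cycles in the Sham samples, a difference of 0.077 cycles (exact permutation p = 1, two-sided; adjusted over the 3 assays, 1). Reference 2, an unnamed assay, was at 31.7 ± 1.44 and 32.3 ± 1.13 cycles and differed by -0.57 (exact permutation p = 0.8; adjusted 1). Reference 3, also unnamed, was at 28.3 ± 0.79 in ACLT and 31.0 ± 0.53 in Sham and differed by -2.66 (exact permutation p = 0.1, the smallest that 3 against 3 allows; adjusted 0.3). Only reference 3 was separated between the groups, and it moved in the direction of miR-378 and by more cycles.

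With reference 2 as the normalizer the levels of miR-378 were 9.645, 6.599 and 8.581 in ACLT and 7.549, 7.291 and 5.639 in Sham. The groups overlapped, because ACLT sample 2 fell below 2 of the 3 Sham samples, and the difference was 1.45. Reference 2 alone spanned 2.83 cycles within ACLT and 2.20 within Sham, against 1.02 and 0.95 for miR-378. With reference 3 the levels were 3.812, 4.627 and 6.161 in ACLT and 5.410, 5.039 and 6.079 in Sham. The groups overlapped again, and the difference turned to -0.64, lower in ACLT. With the mean of the 3 references the level was 5.33 ± 0.88 against 4.37 ± 0.10, a difference of 0.97, and the groups were separated by 0.069 log2 units, and 8 of the 100 tested miRNAs were higher in ACLT without overlap on that scale, against 37.0% lower.

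**Figure D2:**
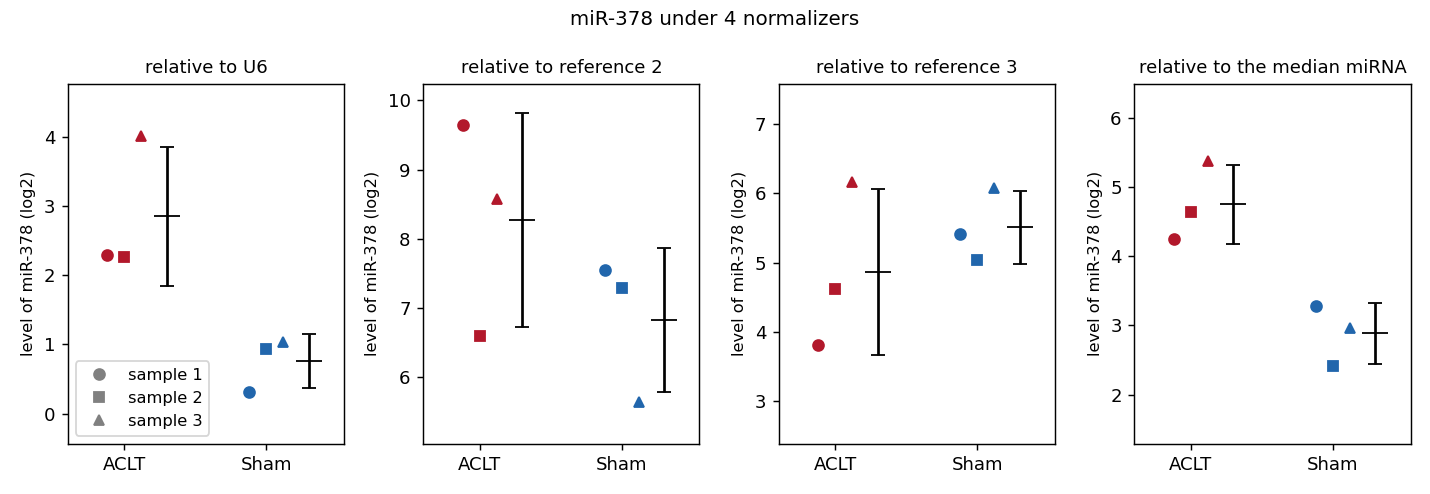
Level of miR-378 on a log2 scale in 3 ACLT and 3 Sham samples (points, shaped by sample number; mean ± SD beside them) relative to U6, reference 2, reference 3 and the median detected miRNA. The groups are apart relative to U6 and to the median miRNA, with differences of 2.09 and 1.86, and overlap relative to references 2 and 3, with differences of 1.45 and -0.64.

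The position of miR-378 among the other miRNAs hardly depended on the reference. A change of the reference well shifts all miRNAs of a plate by the same amount in each sample, and 94 of the 103 detected miRNAs shared the plate of miR-378. The median tested miRNA differed by 0.24 relative to U6, by -0.33 relative to reference 2, by -2.50 relative to reference 3 and by -0.87 relative to their mean. miR-378 stood above that median by 1.86, 1.78, 1.86 and 1.83 log2 units, respectively. Its difference ranked 12 of 100 with each of these normalizers. Centred on the median detected miRNA of each sample, its levels were 4.240, 4.634 and 5.370 in ACLT and 3.282, 2.412 and 2.963 in Sham, with no overlap and a difference of 1.86. Relative to U6, 18.0% of the tested miRNAs were higher in ACLT without overlap between the groups. Centred on the median this share was 20.0%, and relative to reference 3 it was 1.00%, with 86.0% lower in ACLT without overlap.

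**Figure D3:**
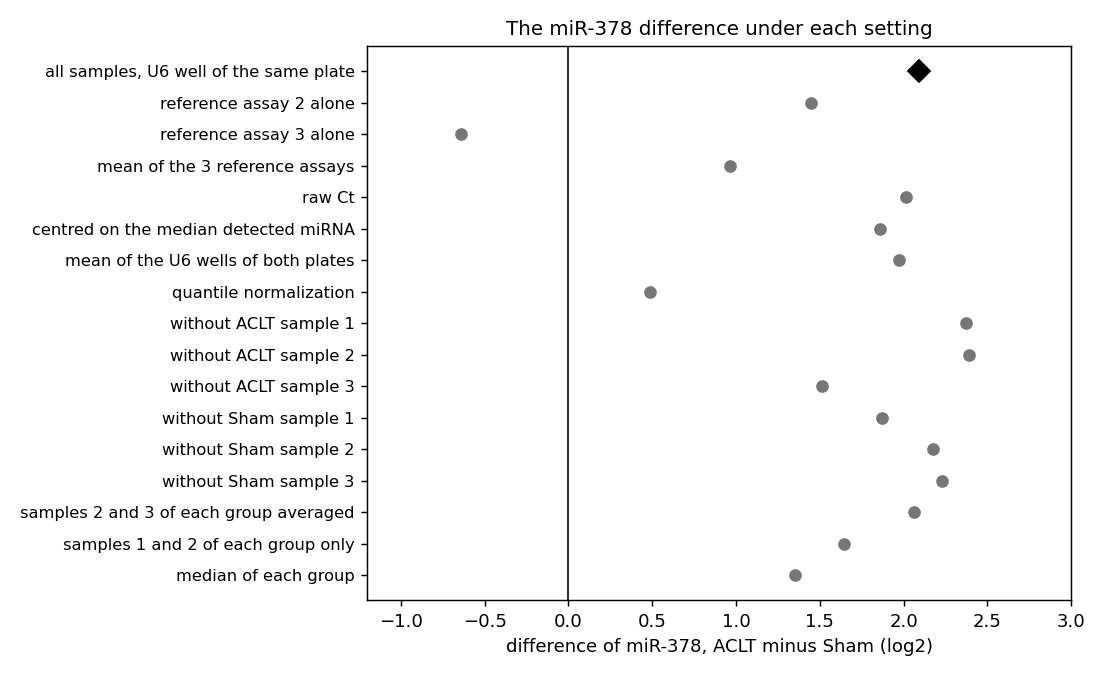
Difference of miR-378 between ACLT and Sham (log2, ACLT minus Sham) with all samples relative to U6 (diamond) and under 16 other settings (circles); the vertical line marks 0. All settings but reference 3 lie above 0, and the mean of the references and quantile normalization lie below 1.

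The rank of its level moved less than the level. A rank sets the Ct of one assay against another, and assays differ in efficiency, so it is no measure of relative RNA amount. In the single samples miR-378 was in place 19, 17 and 6 of 103 in ACLT and 20, 16 and 18 in Sham. Only ACLT sample 3 lay outside the Sham range. By group means it was in place 15 in ACLT and 18 in Sham. Of the miRNAs ahead of it, 11 were the same in both groups. miR-30a, miR-30d and miR-148a were ahead of it only in ACLT, whereas let-7b, let-7f, miR-25, miR-26b, miR-30b and miR-191 were ahead of it only in Sham. None of the latter 6 was called higher in ACLT.

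In ACLT the nearest miRNAs in level were miR-338-5p (2.95 ± 0.27), from an intron of Aatk, and miR-23a (2.87 ± 0.93) above miR-378. miR-200b (2.81 ± 0.43) and miR-30e (2.71 ± 0.19) were next below (SD, n = 3 each). In Sham they were miR-29a (0.78 ± 0.29) and miR-199a-3p (0.78 ± 0.47) above, and miR-29b (0.67 ± 0.62) and miR-30c (0.64 ± 0.42) below. None of these neighbours differed from miR-378 in its own group by more than the SD of miR-378. Quantile normalization, which assigns values by rank within a sample, gave a difference of 0.48 and moved the rank of the difference to 34.

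**Figure D4:**
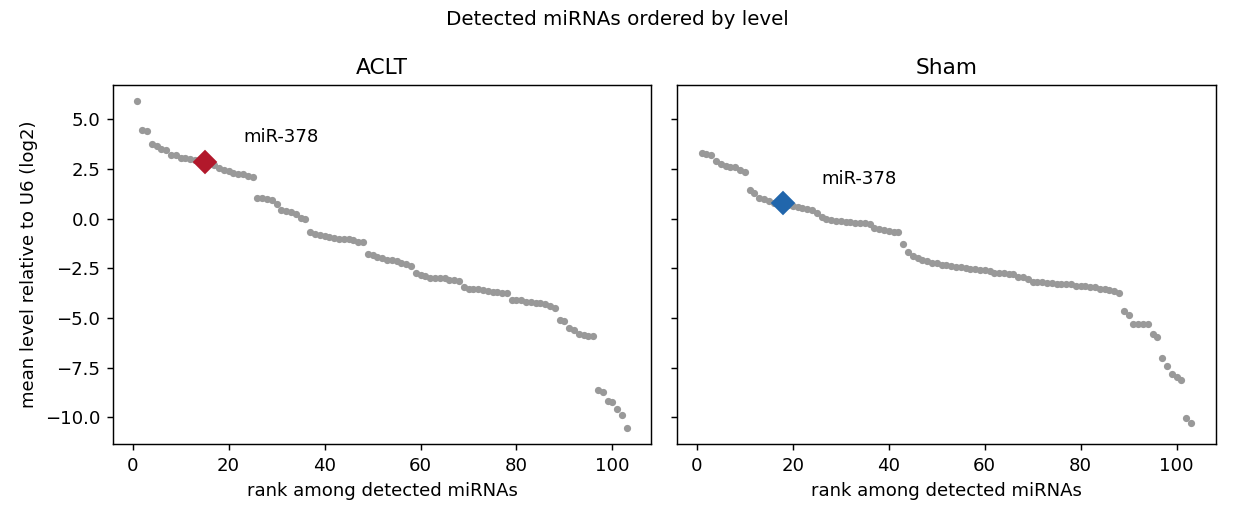
Mean level relative to U6 (log2) of the 103 detected miRNAs, ordered from highest to lowest within ACLT and within Sham, with miR-378 as a diamond. miR-378 is in place 15 in ACLT at 2.85 and in place 18 in Sham at 0.76.

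In the order of the differences miR-378 stood among miRNAs of similar size. Just above it were miR-29a (2.25 ± 0.61, SE), a repressor of collagen genes, miR-30e (2.24 ± 0.62), which is itself carried in an intron, of Nfyc, and miR-200b (2.24 ± 0.62), which represses the Zeb factors. Just below were miR-30c (1.74 ± 0.62), miR-29b (1.41 ± 0.62) and miR-574-3p (1.25 ± 0.62). Limma called the 3 above and miR-30c as higher, with adjusted p-values of 0.00287, 0.00307, 0.00307 and 0.0334, and did not call miR-29b (adjusted p = 0.110) or miR-574-3p (adjusted p = 0.161). miR-378 differed by less than 1 SE from the 3 above it and from miR-30c below it.

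The miRNAs whose 6 levels followed those of miR-378 most closely were miR-99a (Pearson r = 0.960), miR-200b (0.944), miR-30d (0.938), miR-30a (0.924) and miR-29a (0.913). These r values are over the 6 samples of 2 groups that share the U6 wells, so they are a description only; the median r of the 99 other tested miRNAs was 0.46. With each sample centred on its median miRNA the median r was 0.068, and miR-200b (0.920), miR-29a (0.908), miR-145 (0.899), miR-30a (0.898) and miR-199a-3p (0.893) came first. miR-200b, miR-30a and miR-29a were among the first 5 by both and by the root-mean-square difference of the centred levels, where miR-200b was nearest with 0.41 log2 units. With the group means also removed from the centred levels, r was 0.777 for miR-99a, 0.611 for miR-29a, 0.324 for miR-200b, 0.129 for miR-30d and 0.0981 for miR-30a, so within the groups miR-30d and miR-30a hardly followed miR-378. miR-99a had the same order of samples but a smaller difference, at 0.79 ± 0.59 (SE; limma adjusted p = 0.417), and was on the shared factor in both groups.

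The mature sequences of 4 of these 5, as deposited with the array and matched to RefSeq of GRCm38.p6, are shown so that their seeds, in capitals, can be compared. Written 5′ to 3′, they come from 4 seed families, and none has the seed of miR-378.
miR-99a: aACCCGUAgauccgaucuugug
miR-200b: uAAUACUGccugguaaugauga
miR-30a: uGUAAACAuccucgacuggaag
miR-29a: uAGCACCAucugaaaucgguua

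**Figure D5:**
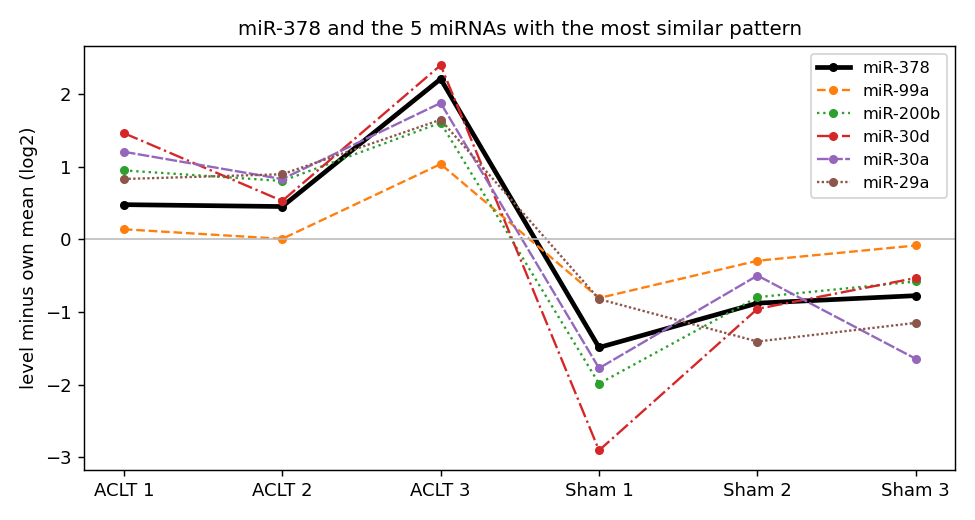
Levels relative to U6 in the 6 samples, each miRNA minus its own mean (log2), for miR-378 (thick line) and the 5 miRNAs with the highest r to it; lines join samples for reading only. All 6 are highest in ACLT sample 3 and above their own mean in the ACLT samples, with miR-99a moving least.

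Among miRNAs tied to oxidative metabolism and mitochondria few had a value to set beside miR-378. Of 21 listed miRNAs, all on the array, 5 had a Ct, miR-378 included. Of the other 4, 0 passed in limma in either direction, beside 13.0% higher and 7.00% lower of all tested, and so few miRNAs do not stand apart from that background. Their median difference was 0.51, against 0.24 over all tested miRNAs. miR-23a, which represses PGC-1α in muscle, had levels of 1.956, 2.842 and 3.809 in ACLT and 1.441, 3.377 and 3.435 in Sham. The groups overlapped, and its difference was 0.12 ± 0.58 (SE; limma adjusted p = 0.883). miR-455, linked to brown fat, stood at 0.59 ± 0.61, the liver miRNA miR-122 at 0.53 ± 0.59 and miR-27b at 0.48 ± 0.59, with limma adjusted p-values of 0.577, 0.590 and 0.612. All 4 were on the shared factor in both groups. miR-33 of Srebf2, miR-103 and miR-107 of the pantothenate kinase genes, and miR-210 had no Ct in any sample.

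Of 44 listed miRNAs carried in introns of protein-coding genes, 22 had a Ct. The list is a selection, so its counts are not those of all intronic miRNAs. Of the 21 other than miR-378, 2 were called higher and 1 lower by limma, beside 13.0% and 7.00% of all tested, and their median difference was -0.20. The higher ones were miR-30e and miR-30c, both listed under Nfyc. The array reads mature miRNAs and cannot tell from which locus they came. The lower one was miR-186 of Zranb2 (-1.71 ± 0.59, limma adjusted p = 0.0275), which was on the shared factor in both groups. miR-297a of Sfmbt2 was higher without overlap at 0.99 ± 0.62 but did not pass (limma adjusted p = 0.299). The 3 detected miRNAs of Mcm7, miR-106b, miR-93 and miR-25, stood at 0.60, 0.77 and -0.20. The other 14 lay between -0.997 (miR-361) and 0.37 (miR-218). Of the 21, 16 were on the shared factor in both groups.

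miRNAs listed for muscle, for fat and for several cell types of marrow were read beside these values. miR-378 is abundant in muscle and brown fat, and of the 7 muscle miRNAs only miR-206 had a Ct (-0.22 ± 0.63, SE), while miR-1, miR-133a, miR-133b, miR-208a, miR-208b and miR-499 had none. Of 4 fat miRNAs only miR-455 had one. The summed linear level of the muscle list relative to U6 was 0.473 to 0.650 in ACLT and 0.469 to 1.15 in Sham, and that of the fat list 0.218 to 0.476 and 0.110 to 0.369. Neither list was separated between the groups, and miR-206 and miR-455 were on the shared factor in both groups.

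The mesenchymal list was separated in its summed level. Of its 6 miRNAs 5 had a Ct, and 3 were called higher by limma (miR-214, miR-199a-3p and miR-145), beside 13.0% of all tested, while miR-143 and miR-152 stood at -0.67 and -0.76. Its summed level was 37.5 to 51.5 in ACLT and 4.91 to 7.16 in Sham, and only miR-199a-5p had no Ct. The sum rests on the 3 called higher, with mean ACLT levels of 4.47, 3.20 and 3.49. miR-143 and miR-152, at -3.70 and -3.53, add little to it and were on the shared factor in both groups. The part of mesenchymal cells in the level of miR-378 was not tested. The myeloid list was separated too, through miR-21, with summed levels of 55.7 to 77.1 and 3.40 to 5.70; miR-142-5p (0.28) and miR-146a (1.04) did not pass, and miR-223 and miR-142-3p had no Ct. All 3 erythroid miRNAs had a Ct, with sums of 0.517 to 0.991 in ACLT and 0.328 to 0.519 in Sham. For the lymphoid list (3 of 4 with a Ct, miR-155 without) the sums were 0.969 to 3.97 and 0.763 to 1.76. For the endothelial list (miR-126-3p with a Ct, miR-126-5p without) they were 0.628 to 1.40 and 0.565 to 1.08. None of the tested erythroid, lymphoid and endothelial miRNAs passed in limma, beside 13.0% higher and 7.00% lower of all tested. All of them, and miR-142-5p, were on the shared factor in both groups, so their samples 2 and 3 are tied. The sums of these 3 lists overlapped between the groups, those of the erythroid list by 1 sample of each group at 0.517 and 0.519. The erythroid miR-451 was higher in ACLT without overlap, as were 18.0% of all tested, with a difference of 1.21 ± 0.62 (SE; limma adjusted p = 0.177).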

How the data were processed

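RNA taken up in Trizol was reverse transcribed with the QuantiMir kit and run with SYBR Green for 40 cycles on a ViiA7, per the labels. The deposited tables hold the raw Ct of each well (cycles), ΔCt (log2; Ct minus that of the U6 well of the same sample and plate, as recomputed here) and the authors' ratio of ACLT over Sham. How the Ct threshold was set is not given in the sources used. Of 719 listed wells, 110 had a Ct in all 6 samples, 103 of them with ΔCt; 2 wells were listed more than once and the line with values was used. A qPCR array has no read depth, so the number of samples limits precision.

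Testing took the 100 miRNAs with a Ct under 35 in every sample of 1 group or both. The test was that of limma 3.58.1 under R 4.3.3 on minus ΔCt (eBayes with a trend, two-sided, Benjamini-Hochberg, 0.05). The code was checked on simulated data with independent samples. Those data lack the shared factor of samples 2 and 3, so the check cannot speak for the p-values of tied wells. limma pools the spread over wells that share cells, cDNA and normalizer. Permutation tests used scipy 1.17.1; other values came from pandas 2.3.3 and numpy 2.4.6 in Python 3.11.15, and plots from matplotlib 3.10.9. miR-378, the lists and the alternatives were chosen with earlier results of these data known. Named are miR-378, its neighbours in rank, the 5 miRNAs most like it and the members of the lists. The mature sequence of miR-378 is not reported here.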

Additional observations from a re-analysis of the deposited data

How the results depend on the processing

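The difference of miR-378, 2.09 relative to U6, turned to -0.64 with reference 3 and fell to 0.97 with the mean of the 3 references and to 0.48 after quantile normalization. In the other 14 of 17 alternatives it moved by less than the pooled SD of 0.76. The replicate block, counted among these, cannot move it by design. Leaving out each sample gave 1.51 to 2.39, the rank of the difference 9 to 13 of the tested miRNAs, and the rank of the level 11 to 18 in ACLT and 17 to 19 in Sham. The 13 miRNAs called higher numbered 0 under reference 2, 1 under reference 3 and 6 under the mean of the references. On raw Ct they numbered 18, under median centring 17 and under quantile normalization 10. For samples 1 and 2 only they numbered 3, and without 1 sample between 11 and 14. The 7 called lower numbered 0 under reference 2, 87 under reference 3 and 34 under the mean of the references. On raw Ct there were 12 lower, under median centring 18 and under quantile normalization 14. With samples 2 and 3 averaged there were 0 lower, and 0 with samples 1 and 2 only. Without 1 sample there were between 0 and 16 lower (0 without ACLT sample 2 and 16 without Sham sample 1). Beside these counts of 0, limma gave 2 higher and 0 lower at an unadjusted p under 0.05 with reference 2, and 4, 5 and 5 lower with samples 2 and 3 averaged, with samples 1 and 2 only and without ACLT sample 2. The causes were not tested. Quantile normalization assigns values by rank by its definition. The Ct difference of the references when leaving out each sample was -0.37 to 0.41 cycles for U6, -1.35 to 0.065 for reference 2 and -3.001 to -2.23 for reference 3. With the replicate number as a replicate block, the difference of miR-378 stayed at 2.09, as it must with a sample of each group in each block. That setting gave 13 miRNAs higher and 1 lower. Deviations of samples with the same number correlated with r = 0.24, 0.056 and 0.066, and only sample 1 correlated best with its own number, so the samples were not taken as paired. 3 of the 5 miRNAs most like miR-378 were the same with either other measure of likeness.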
